A study of Mus musculus with 6 samples.

Results

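The transcripts described here are those of 35 genes that hepatocytes are known for: plasma carriers, apolipoproteins, protease inhibitors, liver enzymes and 2 liver transcription factors. They were listed by hand and matched to the identifiers of the files by gene symbol, and 34 of the 35 had values, among 23073 genes with a value in all. The remaining gene was not analysed here. The tissue was diaphragm muscle of mouse embryos at E14.75, sequenced in 6 libraries. Libraries wild-type 5 and wild-type 6 came from erbB3 WT muscle, and libraries mutant 1 and mutant 2 came from erbB3 KO muscle, which lacks Schwann cells. Libraries Wnt1-Ribotag 1 and Wnt1-Ribotag 2 held RNA pulled down with HA-tagged ribosomes from diaphragms of Wnt1-Cre, Ribotag embryos, in which the erbB3 gene was not mutated. Wnt1-Cre recombines in neural crest and its derivatives, Schwann cells among them, and each of these libraries pooled diaphragms of a litter. By the paper's methods the whole litter was homogenized before genotyping, and only a part of the embryos was Cre-positive. Diaphragms of Cre-negative littermates were therefore in the same homogenate. The embryos of all groups had the same age. The question was whether the ratio between any pair of libraries is shared by all of these transcripts, as it would be if a single admixed tissue supplied them, and which transcripts depart from that ratio.

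The liver lies against the abdominal face of the diaphragm. In the embryo the hepatocyte precursors already secrete the proteins of the plasma: albumin and alpha-fetoprotein, encoded by Alb and Afp, carry small molecules in the blood, apolipoproteins carry lipids, and the inter-alpha-trypsin inhibitor chains and fetuins bind proteases, hyaluronan and minerals. Enzymes of nitrogen and drug metabolism appear in the same cells, most of them later. These genes share regulators such as HNF1, HNF4, C/EBP and forkhead factors.

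Levels are given as RPKM, which divides the reads of a gene by its length and by the depth of the library, so that genes of different length can be compared. A gene without reads has a small floor value, which is what 1 read would give at the depth of that library. By these floors the depth was between 100178863 and 230216660 reads per library, and between 17205 and 20349 genes stood above the floor, with both Wnt1-Ribotag libraries lowest in that number. The muscle identity of the samples was plain from 15 skeletal muscle markers, which summed to between 2033 and 3814 RPKM per library. Erbb3 itself, at between 11.9 and 25.3 RPKM, did not separate the genotypes, whereas the Schwann cell marker Sox10 did, at 2.89 and 2.16 in wild-type, 0.00854 and 0.0178 in mutant, and 15.5 and 32.2 in Wnt1-Ribotag muscle. All 34 hepatocyte transcripts together summed to far less than the muscle markers. The sum was 610.1 RPKM in wild-type 5 and 193 in wild-type 6, and 32.3 and 26.8 in the mutant libraries. In the Wnt1-Ribotag samples it was 369 and 256. The sums of the mutant libraries lay below those of the other 4, and the wild-type libraries differed from each other more than the Wnt1-Ribotag libraries did. In bulk RNA, fewer cells of a type and less RNA per cell cannot be told apart.

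**Figure D1:**
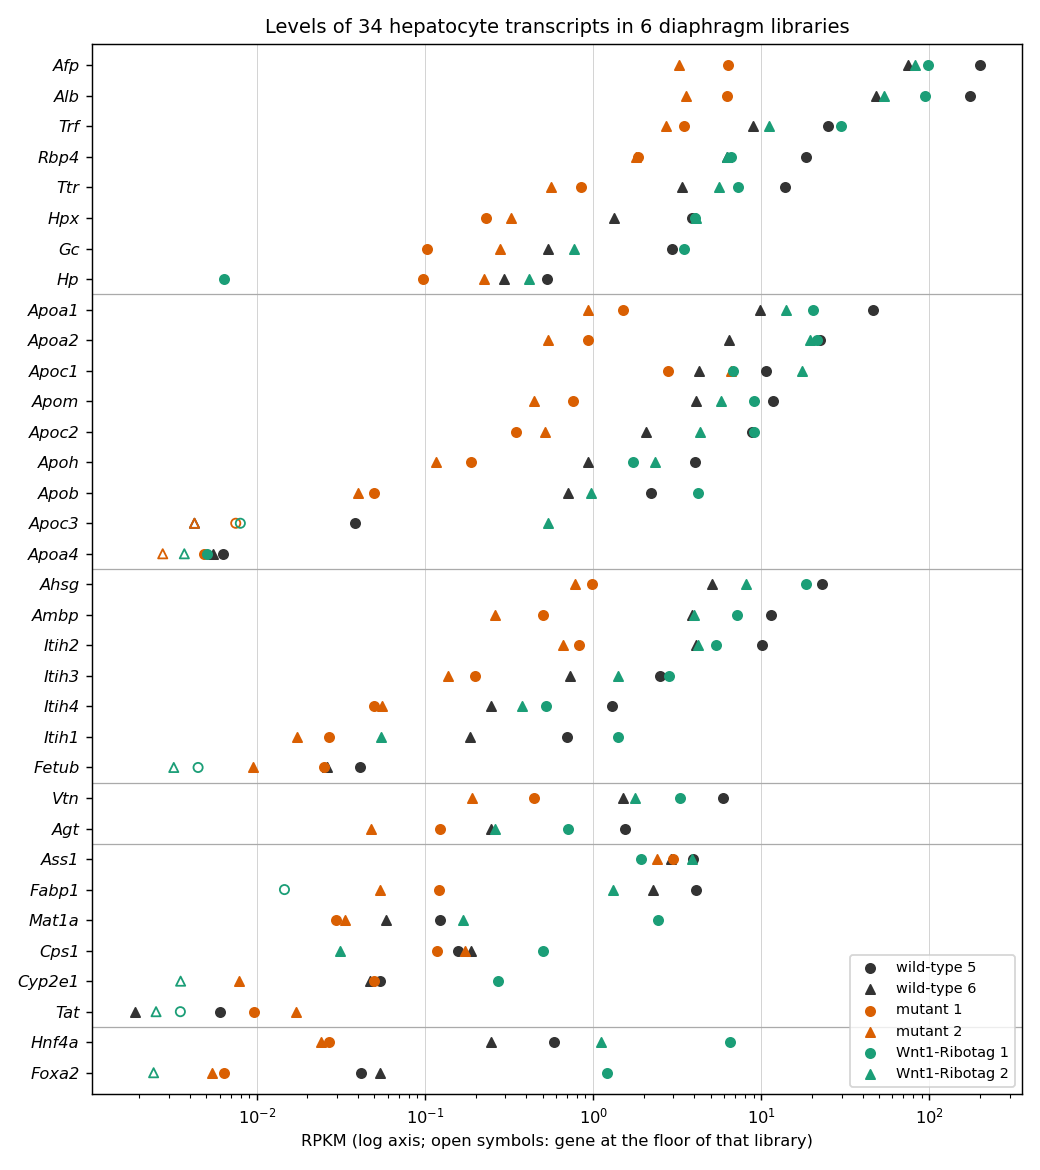
RPKM (log axis) of each of the 34 transcripts in each library, grouped by role and ordered by mean level, with a symbol for each library and open symbols where the gene is at the floor. For most transcripts the mutant libraries lie to the left of the others, while Ass1, Apoc1 and Cps1 show no such gap.

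The promoters of Alb, Afp and Gc are shown because these genes are related members of the albumin family, all on chromosome 5, and because their transcripts differed in how closely they followed the shared ratios described further on. Alb lies at chr5:90460897-90476602 and Afp at chr5:90490737-90508907 of GRCm38, next to each other and on the plus strand, and Gc is on the minus strand. Each line gives the 150 bases before the start of transcription in the RefSeq table for GRCm38.p6, read 5′ to 3′ on the strand of the gene, and none of these windows holds an annotated exon. Capitals mark the HNF1 motif GTTAAT, the left arm of the full site, the loose C/EBP motif TTNNGNAAT and the TATA box TATAAA on either strand.
Alb, chr5:90460720-90460869: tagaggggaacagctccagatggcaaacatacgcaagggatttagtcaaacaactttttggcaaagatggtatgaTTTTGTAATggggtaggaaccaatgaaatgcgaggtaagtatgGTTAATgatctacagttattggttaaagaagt
Afp, chr5:90490564-90490713: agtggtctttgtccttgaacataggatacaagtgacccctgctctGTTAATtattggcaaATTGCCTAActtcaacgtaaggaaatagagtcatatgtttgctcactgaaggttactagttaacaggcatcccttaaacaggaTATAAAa
Gc, chr5:89457899-89458048: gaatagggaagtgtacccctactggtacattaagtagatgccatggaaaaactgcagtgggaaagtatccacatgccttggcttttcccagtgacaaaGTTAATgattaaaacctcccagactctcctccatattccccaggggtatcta
The HNF1 motif starts 32 bases before the RefSeq start of transcription in Alb, 105 in Afp and 52 in Gc. The RefSeq start lies 27 bases before the GENCODE gene start given above in Alb, 23 in Afp and 0 in Gc, so that from the GENCODE starts the distances are 59, 128 and 52 bases.

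The table held promoters for 27 of the 34 genes. The HNF1 motif was found within 150 bases of the start in 8 of them, namely Afp, Alb, Apoc2, Fabp1, Gc, Hnf4a, Itih1 and Vtn, which was 24.2% of the 33 promoters of these genes against 3.71% of all 32851 promoters. The loose C/EBP motif was found for Afp, Ahsg, Alb, Apob and Itih1, in 15.2% of the promoters against 5.71% of all. The TATA box was found for 8 genes, in 24.2% against 7.57%. The forkhead motif TGTTTAC was found for Apoa2 and Apoh, in 6.06% against 1.80%. The HNF4 core CAAAGTCCA, the C/EBP palindrome TTGCGCAA, the full HNF1 site and the HNF4 direct repeat were found in 0 promoters of these genes, and in at most 0.271% of all promoters. Such matches describe letters in a window and were not measured as binding.

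The 8 plasma carriers took between 47.5% and 74.0% of the summed RPKM of the 34 transcripts in each library. Afp stood at 200.2 and 74.1 RPKM in the libraries wild-type 5 and 6, at 6.35 and 3.24 in mutant 1 and 2, and at 98.5 and 82.5 in the Wnt1-Ribotag samples. Alb, which encodes the main protein of plasma, stood at 174 and 48.2 in wild-type, 6.24 and 3.57 in mutant, and 94.3 and 53.5 in Wnt1-Ribotag muscle. Both mutant libraries were thus below both wild-type libraries for both genes, while the Wnt1-Ribotag samples lay between the wild-type values. In mutant vs. wild-type muscle Afp fell by 4.60 on the log2(RPKM + 0.5) scale (SE 0.44, adjusted p = 0.00821 from limma). Alb fell by 4.14 (SE 0.51, adjusted p = 0.0312 from limma). The ratio of Alb to Afp remained between 0.649 and 1.10 in all 6 libraries.

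The other carriers were lower in level. Ttr, which encodes the thyroid hormone carrier transthyretin, stood at 13.8 and 3.36 RPKM in wild-type, 0.843 and 0.561 in mutant, and 7.29 and 5.64 in Wnt1-Ribotag muscle. Rbp4, the retinol carrier of plasma, stood at 18.5 and 6.29, at 1.85 and 1.81, and at 6.58 and 6.24 in the same order of groups. Trf, which encodes the iron carrier transferrin, stood at 24.9 and 8.88, at 3.47 and 2.71, and at 29.6 and 11.1. For these 3 genes both mutant libraries were again the lowest, but Trf remained at 18.3% of its wild-type mean and Rbp4 at 15%, against 3.50% for Afp and 4.42% for Alb. These shares depend on the wild-type library: of wild-type 5 alone they are 12.4% for Trf, 9.90% for Rbp4, 2.39% for Afp and 2.82% for Alb, and of wild-type 6 alone 34.8%, 29.1%, 6.47% and 10.2%. Hpx, which encodes the heme carrier hemopexin, stood at 3.89 and 1.33 in wild-type, 0.231 and 0.323 in mutant, and 4.05 and 4.10 in Wnt1-Ribotag muscle. Gc, the vitamin D carrier, stood at 2.93 and 0.539, at 0.103 and 0.279, and at 3.47 and 0.772. The wild-type libraries differed most for Gc among the 22 more abundant members (mean RPKM of 0.5 or more in the 6 libraries), and its mutant libraries were ordered the other way from those of Afp and Alb. None of these 5 genes passed the threshold in mutant vs. wild-type muscle, with adjusted p from limma between 0.103 and 0.354. Hp, which encodes the hemoglobin carrier haptoglobin, was rare at 0.529 and 0.296 in wild-type, 0.0970 and 0.224 in mutant, and 0.00641 and 0.418 in Wnt1-Ribotag muscle, and was not tested in this comparison.

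Among the apolipoproteins, Apoa1, the main protein of high-density lipoprotein, stood at 46.1 and 9.82 RPKM in wild-type, 1.51 and 0.933 in mutant, and 20.3 and 14.0 in Wnt1-Ribotag muscle. Apoa2, a second protein of the same particle, stood at 22.4 and 6.44, at 0.930 and 0.537, and at 21.5 and 19.6. The mutant libraries lay below all others for both genes, and Apoa1 exceeded Apoa2 between 1.53 and 2.06 times in the whole-muscle libraries but not in the Wnt1-Ribotag samples, where the ratio was 0.943 and 0.714. Between mutant and wild-type muscle the log2 fold change was -3.69 for Apoa1 and -3.37 for Apoa2, just short of the threshold (adjusted p = 0.0765 and 0.0560 from limma). Apob, the structural protein of low-density lipoprotein, stood at 2.21 and 0.708 in wild-type, 0.0498 and 0.0402 in mutant, and 4.2 and 0.966 in Wnt1-Ribotag muscle. Apoc2, which activates lipoprotein lipase, stood at 8.84 and 2.06, at 0.346 and 0.515, and at 9.02 and 4.30. Apoh stood at 4.02 and 0.931, at 0.189 and 0.117, and at 1.72 and 2.34, and Apom, a carrier of sphingosine 1-phosphate, at 11.7 and 4.11, at 0.760 and 0.448, and at 9.10 and 5.77. These 4 genes also had both mutant libraries below all others, with adjusted p from limma between 0.0608 and 0.176.

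Apoc1 did not follow the other apolipoproteins. It stood at 10.7 and 4.27 RPKM in wild-type, 2.81 and 6.58 in mutant, and 6.83 and 17.5 in Wnt1-Ribotag muscle. The mutant values overlapped the wild-type values, and in limma the change between mutant and wild-type muscle was -0.59 on the log2 scale (SE 0.44, adjusted p = 0.542). Apoc1 is also expressed by macrophages, as is known from other tissues, and 14 macrophage markers summed to between 160 and 182 RPKM in wild-type and between 144 and 174 in mutant muscle, with 0 of the 12 tested past the threshold. The part of macrophages in the level of Apoc1 was not tested. The other apolipoproteins were nearly absent. Apoa4 stood at no more than 2 floor units in all 6 libraries, and Apoc3 was at the floor in wild-type 6, both mutant libraries and Wnt1-Ribotag 1, at 3.95 floor units in wild-type 5 and at 94.5 in Wnt1-Ribotag 2.

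Ambp encodes the precursor of alpha-1-microglobulin and bikunin, the light chain to which the inter-alpha-trypsin inhibitor heavy chains are joined. It stood at 11.4 and 3.86 RPKM in wild-type, 0.501 and 0.262 in mutant, and 7.19 and 3.97 in Wnt1-Ribotag muscle, and fell by 3.04 on the log2 scale in mutant vs. wild-type muscle (SE 0.41, adjusted p = 0.0477 from limma). This call was lost with a pseudocount of 1 (adjusted p = 0.0724), quantile normalization (0.0718), no trend (0.0564), no filter (0.396) or all 6 libraries in limma's fit (0.350). Among the heavy chains, Itih2 stood at 10.1 and 4.07, at 0.819 and 0.666, and at 5.40 and 4.17 (log2 fold change -2.49, adjusted p = 0.0519 from limma in mutant vs. wild-type muscle). Itih3 stood at 2.50 and 0.728, at 0.198 and 0.136, and at 2.81 and 1.40. Itih4 stood at 1.30 and 0.246, at 0.0495 and 0.0554, and at 0.522 and 0.377. Both mutant libraries were lowest for the light chain precursor and for each of these 3 heavy chains. Itih1 was also lower in the mutant within whole muscle, at 0.699 and 0.184 in wild-type and 0.0270 and 0.0173 in mutant muscle, but its Wnt1-Ribotag values were far apart at 1.40 and 0.0545. Ahsg, which encodes the mineral-binding fetuin-A, stood at 22.9 and 5.10, at 0.989 and 0.780, and at 18.5 and 8.15, whereas its paralog Fetub was rare, between 3.98 and 10.9 floor units in whole muscle and at the floor in both Wnt1-Ribotag samples. Vtn, which encodes the adhesive plasma protein vitronectin, stood at 5.90 and 1.5, at 0.442 and 0.190, and at 3.27 and 1.78. Agt, the precursor of the angiotensins, stood at 1.54 and 0.246, at 0.122 and 0.0480, and at 0.713 and 0.262.

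The metabolic members shared no pattern. Fabp1, the fatty acid carrier of hepatocyte cytoplasm, stood at 4.07 and 2.28 RPKM in wild-type, at 0.122 and 0.0544 in mutant muscle, at the floor in Wnt1-Ribotag 1 and at 1.31 in Wnt1-Ribotag 2. It fell by 2.60 on the log2(RPKM + 0.5) scale in mutant vs. wild-type muscle (SE 0.24, adjusted p = 0.00821 from limma), and the mean in mutant muscle came to 2.77% of that in wild-type muscle, the smallest share among the 34 genes. Ass1, the argininosuccinate synthase of the urea cycle and of arginine synthesis in many tissues, stood at 3.94 and 2.92 in wild-type, 2.99 and 2.41 in mutant, and 1.93 and 3.90 in Wnt1-Ribotag muscle. The groups overlapped for Ass1, and in limma its change was -0.29 on the log2 scale (SE 0.19, adjusted p = 0.502). Cps1, which catalyzes the first step of the urea cycle, stood at 0.156 and 0.188, at 0.118 and 0.174, and at 0.502 and 0.0313, and overlapped as well. The enzymes of mature hepatocytes were rare. Tat, a tyrosine aminotransferase, reached 9.11 floor units at most, in mutant 2, and was the only member whose mutant values both lay above both wild-type values. Cyp2e1, a cytochrome P450, stood between 3 and 18 floor units in whole muscle, at 55 in Wnt1-Ribotag 1 and at the floor in Wnt1-Ribotag 2. Mat1a, the methionine adenosyltransferase of liver, stood at 0.122 and 0.0588 RPKM in wild-type, 0.0296 and 0.0336 in mutant, and 2.45 and 0.168 in Wnt1-Ribotag muscle.

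Both transcription factors of the list were low in whole muscle. Hnf4a, a nuclear receptor that drives hepatocyte genes, stood at 0.584 and 0.248 RPKM in wild-type, 0.0267 and 0.0242 in mutant, and 6.51 and 1.11 in Wnt1-Ribotag muscle. Foxa2, a forkhead factor of endoderm, stood at 9.98 and 29.8 floor units in wild-type, 2 and 3 in mutant, 357 in Wnt1-Ribotag 1 and 1 in Wnt1-Ribotag 2. Hnf4a was therefore highest in both Wnt1-Ribotag samples, and Foxa2 in 1 of them only.

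In mutant vs. wild-type muscle 21 of the 34 transcripts had a mean RPKM of at least 0.5 and were tested, and the rest entered no test. Of the 21, 4 were lower (Afp, Alb, Ambp and Fabp1) and 0 higher at an adjusted p of 0.05 in limma, against 0.121% of all 14052 genes tested that were lower. At an unadjusted p under 0.05 there were 19, against 12% of all genes tested in either direction. Of the 21, 9 (Gc, Hpx, Apob, Apoc2, Apoh, Ambp, Itih3, Vtn and Fabp1) reached the mean RPKM of 0.5 only through wild-type muscle, where they were high, and 2 of the 4 calls, Ambp and Fabp1, are among them. The number depended on single libraries: it was 14 without wild-type 5, 20 without wild-type 6, and 0 without mutant 1 or without mutant 2, where 0.756%, 0.644%, 0.142% and 0.0709% of all genes tested passed in either direction. A difference of at least 2-fold in all 4 pairs of a mutant and a wild-type library was found for 17 of the 34, all lower in the mutant, against 0.399% of all genes tested. These 17 were Afp, Alb, Ttr, Trf, Rbp4, Hpx, Apoa1, Apoa2, Apob, Apoc2, Apoh, Apom, Ambp, Itih2, Ahsg, Vtn and Fabp1, and the number lay between 17 and 23 when any library was left out, against between 0.612% and 0.868% of all genes lower. The mutant values lay below the wild-type values without overlap for 28 of the 34, against 37.4% of all genes tested. The median log2 fold change was -1.63 over the 34 transcripts and -0.10 over all genes tested, and the latter shift applies to all values above.

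Without the added 0.5, which dampens the change of rare transcripts, the mutant to wild-type ratio could be compared across transcripts. Its median over the 34 was -3.09 on the log2 scale, or 8.50-fold lower in the mutant, against -0.12 over all genes. Its size depended on the wild-type library, with a median 14.3- and 17.7-fold lower in mutant 1 and mutant 2 than in wild-type 5, but 4.95- and 5.66-fold lower than in wild-type 6. The ratio was not common to all members: 17 of the 34 lay within 2-fold of the median and 17 beyond, 8 of these 17 among the 12 rare members with a mean RPKM under 0.5. Of the 22 more abundant members 6 (Afp, Trf, Apob, Apoc1, Fabp1 and Ass1) lay more than 2-fold from their own median of -3.46, or 27.3%, against 2.14% of the 14047 genes that were tested and above the floor. Of the 17 departures, 10 were toward a smaller loss. Among these, Apoc1 (log2 ratio -0.65) and Ass1 (-0.34) were well expressed, whereas Hp, Apoa4, Apoc3, Fetub, Cps1, Tat, Mat1a and Cyp2e1 had a mean RPKM under 0.5. The other departures, of Afp, Alb, Apoa1, Apoa2, Apob, Ambp and Fabp1, were toward a larger loss, from -4.09 for Apoa2 to -5.23 for Fabp1. Apoa2 lay just outside the 2-fold limit and Itih1, at -4.06, just inside. On the other side, Trf was just inside at -2.28 and the nearest outside were Mat1a and Hp, both at -1.43.

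**Figure D2:**
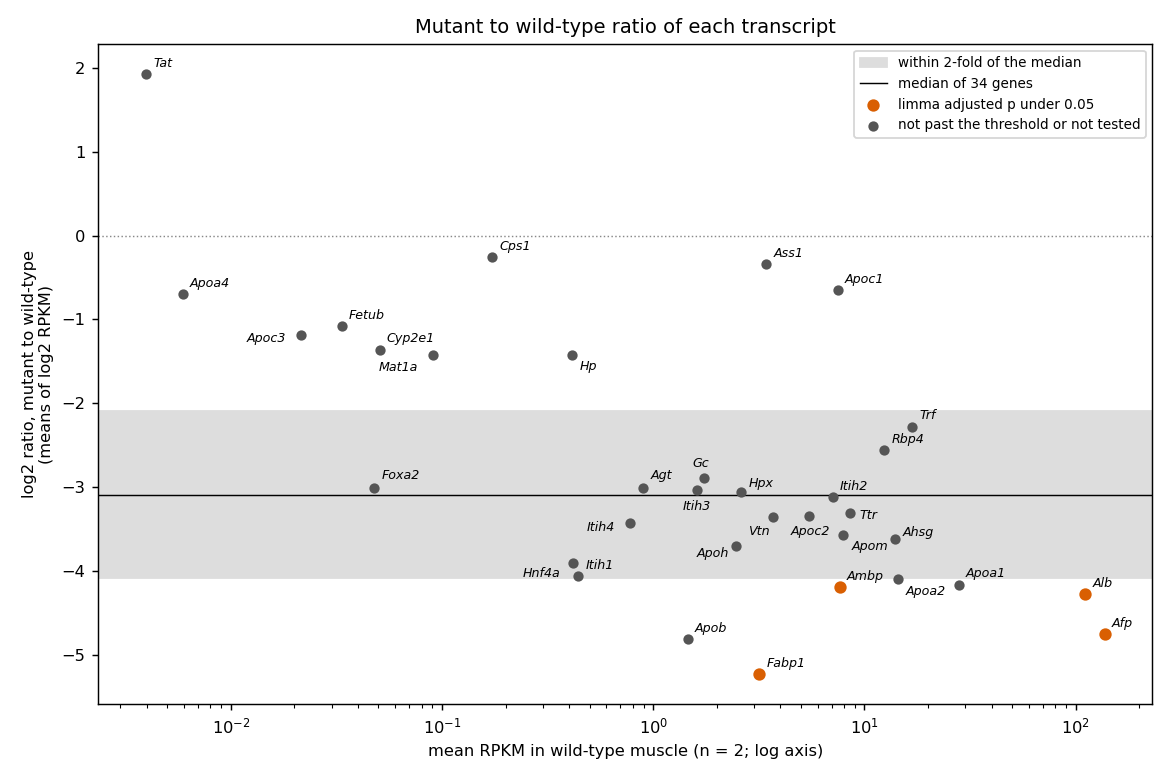
Log2 ratio of mutant to wild-type muscle (difference of the group means of log2 RPKM, 2 libraries each) against mean RPKM in wild-type muscle (log axis), a point per transcript, orange where limma's adjusted p is under 0.05. The line is the median of -3.09, the band the values within 2-fold of it, and Ass1 and Apoc1 stand far above the band while Afp, Alb, Apob and Fabp1 stand below it.

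The make-up of the summed level shifted with these departures. Alb and Afp together gave 61.3% and 63.3% of the summed RPKM in wild-type, 39.0% and 25.5% in mutant, and 52.2% and 53.1% in Wnt1-Ribotag muscle. The share of both mutant libraries lay below that of the other 4. Trf, Rbp4, Apoc1 and Ass1, chosen after their values were seen, gave 9.50% and 11.6% of the sum in wild-type, 34.4% and 50.4% in mutant, and 12.2% and 15.1% in Wnt1-Ribotag muscle. Of these 4, all are known to be expressed outside the liver as well, as are Vtn and Agt, whose log2 ratios of -3.36 and -3.01 lay near the median.

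**Figure D3:**
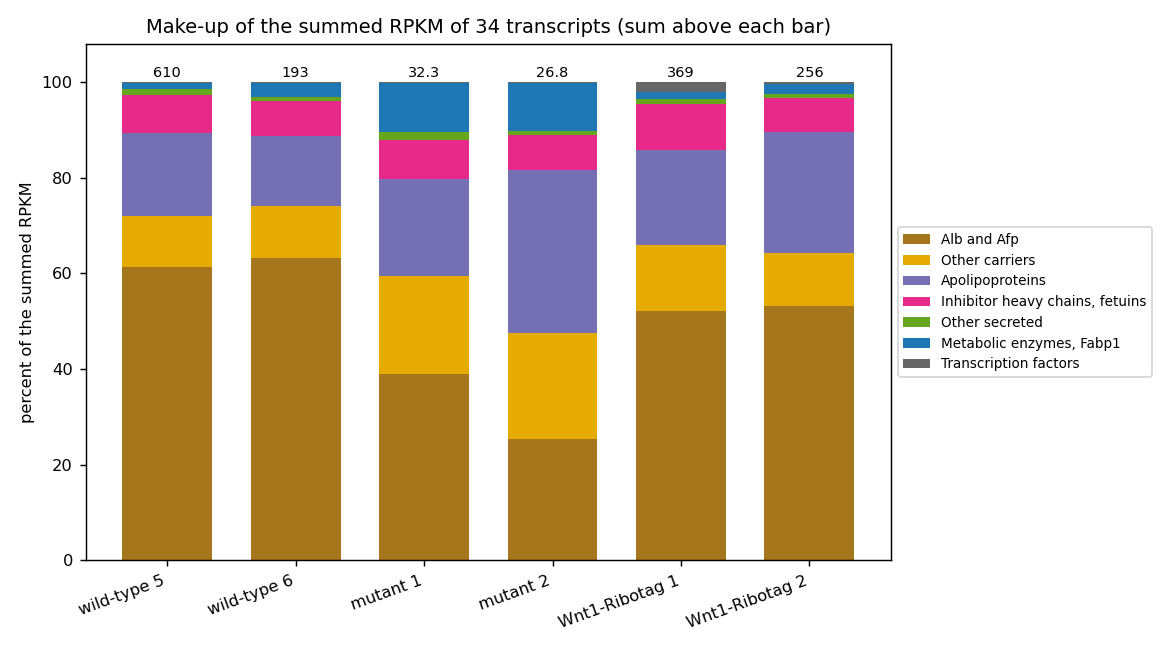
Percent of the summed RPKM of the 34 transcripts contributed by Alb and Afp and by each other role, a bar per library, with the sum in RPKM above the bar. The share of Alb and Afp is 39.0% and 25.5% in the mutant libraries and between 52.2% and 63.3% in the others.

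Ratios within a group were compared next. The median transcript was 2.95 times higher in wild-type 5 than in wild-type 6, while the median ratio of all genes was -0.06 on the log2 scale. Of the 22 more abundant transcripts, 21 lay within 2-fold of their median, which was 3.04, and the only exception was Ass1, at 0.43 on the log2 scale. This share, 95.5%, was close to the 97.6% of all genes of that abundance within 2-fold of their median. Between the mutant libraries the median transcript was 1.36 times higher in mutant 1, and 19 of the 22 lay within 2-fold of this, all but Gc, Apoc1 and Apoc2, or 86.4% against 97.3% of all genes. Between the Wnt1-Ribotag samples the median transcript was 1.51 times higher in Wnt1-Ribotag 1, and 15 of the 22 lay within 2-fold, all but Gc, Apob, Apoc1, Apoh, Fabp1, Ass1 and Hnf4a, or 68.2% against 82.4% of all genes. More than 4-fold departures were seen for 0 of the 34 in wild-type muscle, for Cyp2e1 in mutant muscle, and for 8 in the Wnt1-Ribotag samples. These 8 were Itih1, Cps1, Mat1a, Cyp2e1 and Foxa2, higher in Wnt1-Ribotag 1, and Hp, Apoc3 and Fabp1, higher in Wnt1-Ribotag 2. Of the 8 only Fabp1 was among the 22 more abundant transcripts, and 1 of 22, or 4.55%, is near the 5.15% of all genes of that abundance between the Wnt1-Ribotag samples. In all genes the share was 0.649% between the wild-type and 0.503% between the mutant libraries. The Wnt1-Ribotag libraries were made from much less RNA than the whole-muscle libraries, and the part of this in the scatter was not tested.

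**Figure D4:**
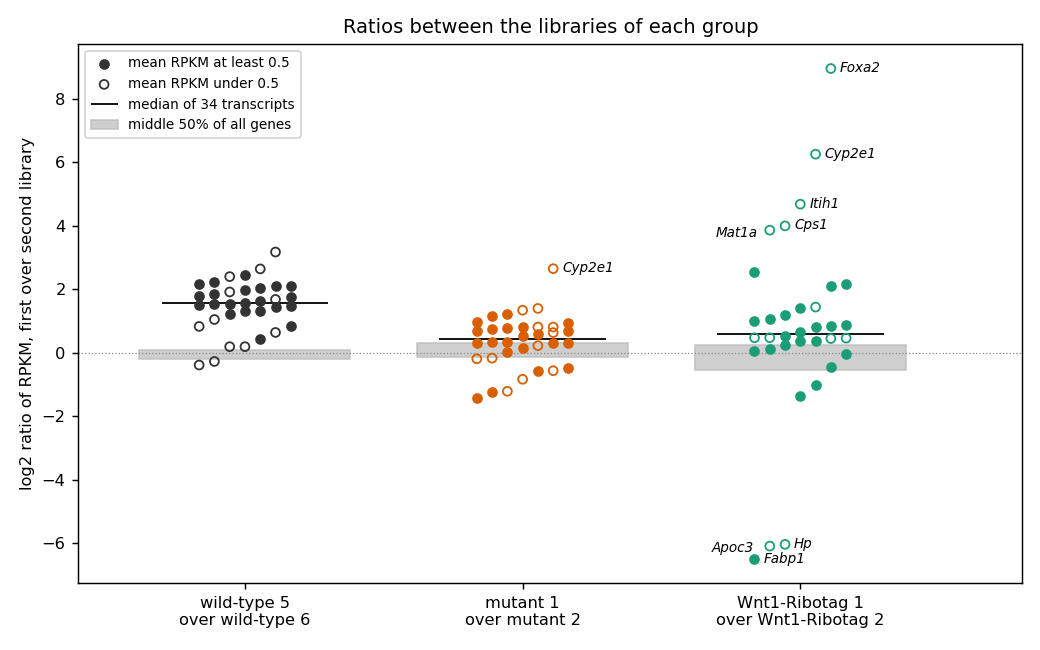
Log2 ratio of RPKM between both libraries of each group, a point per transcript, filled for a mean RPKM of at least 0.5 and open below it, with the median of the 34 as a line and the middle 50% of all genes as a grey box. Names mark ratios more than 4-fold from the median: 0 in wild-type, 1 in mutant and 8 in Wnt1-Ribotag muscle.

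All 6 libraries were then described by a single profile, with 1 value per library and 1 per transcript on the log2 RPKM scale, estimated by median polish. The library values were 1.83 and 0.25 in wild-type, -1.94 and -2.31 in mutant, and 1.48 and 0.68 in Wnt1-Ribotag muscle. All other genes above the floor, taken the same way, had library values between -0.11 and 0.09. Within 2-fold of the profile in every library were 14 of the 34 transcripts, namely Alb, Ttr, Trf, Apoa1, Apoc2, Apoh, Apom, Ambp, Itih2, Itih3, Itih4, Ahsg, Vtn and Agt. Ttr followed it most closely, with no departure over 0.37 on the log2 scale. By role, the profile held for 3 of 8 carriers, 4 of 9 apolipoproteins, 5 of 7 inhibitor chains and fetuins, both other secreted proteins, 0 of 6 metabolic members and 0 of 2 transcription factors. Role goes with abundance here: Cps1, Tat, Mat1a, Cyp2e1 and Foxa2 had a mean RPKM under 0.5, while Fabp1, Ass1 and Hnf4a were above it. Of the 22 more abundant transcripts 13 stayed within 2-fold of a profile of their own, or 59.1%, against 78.4% of all other genes of that abundance and above the floor. A separate profile of the 12 rare ones held for 0 of them, although Itih4 and Agt, which are among the 12, lay within 2-fold of the profile of all 34.

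The departures had different forms. The largest in mutant muscle was that of Tat, by 4.49 and 5.69, although Tat stood at no more than 9.11 floor units in any library. Apoc3 was high by 4.48 in Wnt1-Ribotag 2, Cyp2e1 low by -4.16 in the same library, and Mat1a high by 3.01 in Wnt1-Ribotag 1, while Fetub was low by -3.31 and -2.99 in both and Cps1 low by -3.11 in Wnt1-Ribotag 2. Afp and Apob were low in mutant muscle relative to the profile, by -0.80 and -1.41 for Afp and by -1.64 and -1.59 for Apob. Ass1 was high there, by 2.23 and 2.29, and so was Apoc1, by 0.79 and 2.39. Hnf4a was high in both Wnt1-Ribotag samples, by 3.65 and 1.91, while Foxa2 was high by 4.08 in Wnt1-Ribotag 1 and low by -4.08 in Wnt1-Ribotag 2. Fabp1 and Hp were low in Wnt1-Ribotag 1 by -6.89 and -6.80 and near the profile in Wnt1-Ribotag 2. A departure of more than 4-fold was seen for 7 transcripts in Wnt1-Ribotag 1 and 5 in Wnt1-Ribotag 2, for 5 and 6 in mutant 1 and mutant 2, and for 0 and 1 in wild-type 5 and wild-type 6.

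**Figure D5:**
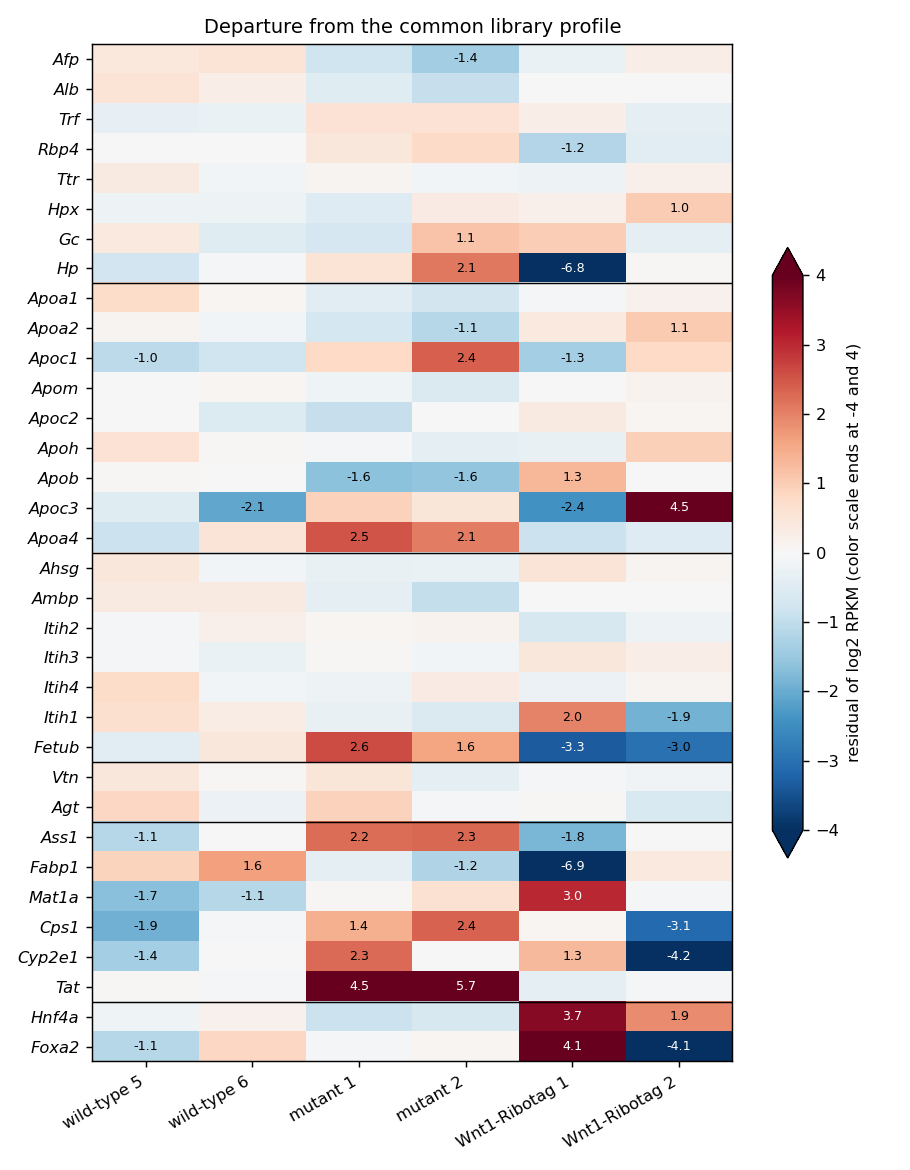
Departure of each transcript (rows, grouped by role) from the common profile in each library (columns), as a residual of log2 RPKM, red where the level is above the profile and blue where it is below, with the value printed where it exceeds 1 in size. Rows such as Ttr, Apom and Ahsg are pale throughout, while the metabolic members and transcription factors are not.

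Wnt1-Ribotag samples were compared with wild-type muscle because their RNA was pulled down with ribosomes tagged in the Wnt1-Cre lineage. The median log2 ratio without the added 0.5 was -0.24 over the 34 transcripts, and 8 of them lay more than 2-fold from it. Its sign depended on the wild-type library: the median transcript was 1.58- and 2.42-fold lower in Wnt1-Ribotag 1 and 2 than in wild-type 5, but 2.18- and 1.35-fold higher than in wild-type 6. Of the 22 more abundant members 2, Fabp1 and Hnf4a, lay beyond 2-fold of their own median, or 9.09% against 11.6% of all genes tested and above the floor. Of the 26 transcripts tested, 0 passed an adjusted p of 0.05 in limma and 2 had an unadjusted p under 0.05, as did 19.5% of all genes tested. These 2 were Fabp1 and Hnf4a. Of the 26, 3 (Itih1, Mat1a and Hnf4a) reached the mean RPKM of 0.5 only through the Wnt1-Ribotag samples, where they were high. Another 2 (Itih4 and Agt) reached it only through wild-type muscle. Of all 14418 genes tested 0% were called lower and 0.00694% higher in this comparison. A difference of at least 2-fold in all 4 pairs was found for 0 members, against 0.825% of all genes lower and 1.51% higher. Without wild-type 5 it was found for 3 members, all higher in the Wnt1-Ribotag samples, against 1.87% of all genes, and without wild-type 6 for 4, all lower there, against 1.39%. Afp, for example, had a log2 fold change of -0.43 (SE 0.48) and Alb of -0.37 (SE 0.65). The groups did not overlap for Hpx, Mat1a and Hnf4a, higher in the Wnt1-Ribotag samples, nor for Apoa4, Fetub and Fabp1, lower there, while 23.3% of all genes tested were higher and 31.0% lower without overlap. Without Wnt1-Ribotag 2, 4 members passed the threshold, 2 in each direction, and 4 differed at least 2-fold in all pairs, but 41.8% of all genes then passed the threshold and 9.34% differed at least 2-fold. In the same comparison all 14 Schwann cell markers tested had higher means, with a median log2 fold change of 2.11 and 0 past the threshold, and 15 skeletal muscle markers had a median of 0.10. These muscle markers summed to 2623 and 2321 RPKM in the Wnt1-Ribotag samples, against 2396 and 2033 in wild-type muscle. The pulled-down RNA was thus not poor in muscle transcripts, and the part of RNA from outside the Wnt1-Cre lineage was not tested. RNA that had not been pulled down from these diaphragms was not analysed here.

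In Wnt1-Ribotag vs. mutant samples 22 transcripts were tested and 12 were higher at an adjusted p of 0.05 in limma, against 1.02% of all 14325 genes tested that were higher. The 12 were Afp, Alb, Ttr, Rbp4, Hpx, Apoa1, Apoa2, Apoc2, Apom, Ambp, Itih2 and Ahsg. The log2 fold change was 4.16 for Afp (SE 0.33, adjusted p = 0.00934 from limma) and 4.11 for Apoa2 (SE 0.27, adjusted p = 0.00641 from limma). In all 4 pairs, 18 of the 34 were at least 2-fold higher in the Wnt1-Ribotag library, against 3.34% of all genes tested. The Wnt1-Ribotag values lay above the mutant values without overlap for 25 of the 34, against 29.7%. Leaving out Wnt1-Ribotag 2 moved the number past the threshold from 12 to 20, and the share of all genes past it from 1.19% to 26%. Of the 22 tested, 10 reached the mean RPKM of 0.5 only through the Wnt1-Ribotag samples, among them Hpx, Apoc2 and Ambp of the 12. The median log2 ratio without the added 0.5 was 3.24, or 9.47-fold, and 15 of the 34 departed from it by more than 2-fold. Of the 22 more abundant members 9 departed from their own median, or 40.9% against 14.2% of all genes tested and above the floor. This comparison shares its mutant libraries with the first one, and its Wnt1-Ribotag libraries with the second.

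Lists of other genes, also set by hand, stood beside these transcripts. Of 38 other secreted liver proteins 35 had lower and 3 higher mean log2 RPKM in mutant than in wild-type muscle. The 20 abundant enough to test all had lower means. Their median log2 fold change was -2.28, against -0.10 over all genes tested, and 1, Serpina6, passed the threshold. Abundance was judged over mutant and wild-type libraries together, so genes high only in wild-type muscle could enter these 20. How many did so was not counted, nor was the share of all genes with lower means. Over all 38, without this filter or a pseudocount, the median log2 ratio was -3.52. Serpina6, which encodes the corticosteroid carrier of plasma, stood at 36.0 and 10.3 RPKM in wild-type, 0.777 and 0.772 in mutant, and 9.74 and 8.43 in Wnt1-Ribotag muscle, again with both mutant libraries lowest. Of 26 other liver enzymes, receptors and transporters only 3 were abundant enough to test. Of 13 other liver transcription factors 4 were tested, with a median of -0.08 and 0 past the threshold. Blood-forming cells share the embryonic liver with hepatocytes. All 18 erythroid markers in the files had lower means in mutant muscle, with a median log2 fold change of -1.06 and 0 past the threshold. Their summed level was carried by globins, at 10330.1 and 5610 RPKM in wild-type, 7707 and 6425 in mutant, and 4526 and 4299 in Wnt1-Ribotag muscle, and did not separate the genotypes. The muscle, mesothelium and macrophage lists had medians of 0.18, 0.11 and -0.14 in mutant vs. wild-type muscle, with 0 genes past the threshold. Of 9 gut and yolk sac markers 0 were abundant enough to test, and their sum was at most 1.64 RPKM. Among the 12 Schwann cell markers tested, Sox10 and Fabp7 were lower past the threshold. How much liver tissue remained on each diaphragm is not given in the sources used here, and its part in the differences between libraries was not tested.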

How the data were processed

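RNA-Seq of whole diaphragm muscle (erbB3 WT and KO, total RNA) and of RNA pulled down with HA-tagged ribosomes (Wnt1-Cre, Ribotag) was analysed in 2 libraries per group, grouped and numbered by their labels. The submitters' processing notes name STAR and mm9. The authors deposited, for each library, RPKM per Ensembl gene for 23076 entries, 3 of them without a value, and a flag of 1 for genes at the floor. Read counts were not used here, so counting error could not be computed. Depth was taken from microRNA floors (223 genes, of which 81.2% agreed on 1 depth). Genes of 21586 identifiers were named with GENCODE M21 on GRCm38.

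The members, lists and tests were chosen with earlier results of these data known. The members with values were named, and of other genes only the 3 most abundant of a list or those a result turned on. Genes whose RPKM averaged 0.5 or more in the 4 libraries compared were tested on log2(RPKM + 0.5) by limma 3.58.1 (R 4.3.3, lmFit and trended eBayes, no block), with p-values adjusted over all genes tested by Benjamini-Hochberg and a threshold of 0.05. Pairwise counts of at least 2-fold also used log2(RPKM + 0.5). Departures from a common ratio and the median polish used log2 RPKM with floors as deposited. The labels name biological replicates. The replicate numbers of mutant and Wnt1-Ribotag libraries coincide, but these came from different embryos. Python 3.11.15 with numpy 2.4.6 and pandas 2.3.3 was used for the rest. Results for some genes outside the 35 are not reported here.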

Additional observations from a re-analysis of the deposited data

How the results depend on the processing

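No called direction reversed under the alternatives run, while the median log2 fold change in Wnt1-Ribotag vs. wild-type samples, 0.02, lay between -0.46 and 0.57 with a library left out. In mutant vs. wild-type muscle the number of members past the threshold, 4, became 7 with a pseudocount of 0.1 (0.221% of all genes, against 0.171%), 8 with a mean RPKM of at least 1 (0.271%) and 7 with median-ratio scaling (0.320%). It was 0 without a filter and with all 6 libraries in a fit, where 0% of all genes passed, and between 0 and 20 when a library was left out (0.0709% to 0.756%), the lone library of a group then being assumed to vary like the other group. Where 0 passed limma's threshold, between 18 and 23 had an unadjusted p under 0.05, as did between 3.52% and 29.9% of all genes. At 3-fold, 9 members differed in all pairs (0.199% of all genes). The median log2 fold change became -2.40 both with a pseudocount of 0.1 and over members with a mean RPKM of at least 0.5 and lay between -2.32 and -1.01 with a library left out. For Wnt1-Ribotag vs. wild-type, the number past the threshold lay between 0 and 4 with a library left out (0.180% to 41.8% of all genes), the number different in all pairs was 1 at 1.5-fold (8.50% of all genes) and between 0 and 4 with a library left out, and the departing members were 13 at 1.5-fold and 3 with members at the floor left out. For Wnt1-Ribotag vs. mutant, the number past the threshold was 0 without a filter (0.485% of all genes), 6 with quantile normalization (0.579%) and between 8 and 20 with a library left out (0.779% to 26%), and the median was 2.59 with a pseudocount of 0.1. Members beyond the common profile were 13 of 27 rather than 20 of 34 with members at the floor left out, and 14 lay within it both times. The cause of the other changes was not tested. A block by replicate number, which is not a pairing by design, gave 18 members past the threshold in Wnt1-Ribotag vs. mutant samples, while the share of all genes past it rose from 1.19% to 5.88% (the deviations of same-numbered libraries correlated at 0.17 across genes). Wild-type libraries share no number with the others, so no block was possible there. With 2 libraries a group, levels near the floor and differences under 2-fold are poorly resolved.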
